A study of Penicillium oxalicum with 6 samples.

Results

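Across the POX numbering of Penicillium oxalicum genes, 51 of 9834 gene IDs stood in 6 unbroken runs of neighbouring numbers whose transcripts were all at lower levels in the POX09752 deletion strain than in the Ku70 strain. A gene qualified when its mean over the 6 libraries was at least 1 FPKM (fragments scaled to gene length and sequencing depth) and its mean in the deletion strain was at most 0.5 of its mean in the Ku70 strain. The members were chosen by these measured values: they are all qualifying genes in runs of 5 or more consecutive ID numbers. The difference between the strains is therefore what selected them and is given below as a description, without a test. In all, 694 of the 8807 IDs with a mean of at least 1 FPKM had such a ratio, a background of 7.88%, and 643 of these lay outside the runs.

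Penicillium oxalicum is a mould whose secreted enzymes degrade plant polysaccharides such as cellulose, xylan and starch. RNA sequencing was used to measure transcripts in 3 libraries of the strain labelled MuPOX09752, in which the gene POX09752, named by the submitters as a transcription factor, was deleted, and in 3 libraries of the strain labelled Ku70, the control. The Ku70 protein takes part in joining broken DNA ends, and moulds that lack it are often used for targeted gene replacement. All 6 libraries were labelled as mycelium kept for 24 h in liquid medium with 2% Avicel, a microcrystalline cellulose. The growth text names the Ku70 mutant for all samples, and neither the parent of the deletion strain, the number of independent transformants nor the number of separate cultures is stated. The spread between libraries may therefore be technical. The labels give no sequencing batch, and the label mycelium was not checked, since no marker is known by its POX number here.

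In filamentous fungi, genes that work in 1 pathway are often neighbours on the chromosome and are transcribed together. This is best known for secondary metabolites, whose clusters combine a large synthase gene with genes for modifying enzymes, transporters and often a regulator, and for the uptake and breakdown of some nutrients. A regulator outside a cluster can also control it. Gene numbers in fungal annotations usually follow the order of genes along the assembly. Whether that holds for the POX numbers was not tested here, because none of the 9834 IDs matched a tag of the gene table used, and no product was known for any member.

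The library totals lay between 13099454 and 14115694 expected counts. POX09752 itself had 0 counts in each deletion library, against 1568, 1375 and 1663 counts in the Ku70 libraries. Deletion replicate 3 stood apart from deletion replicates 1 and 2, where the chi-square of its pairs, divided by the degrees of freedom, was 74 and 79.2, against 11.5 between the other two and 6.81 to 10.7 between Ku70 libraries. Without deletion replicate 3 the rule found the same 51 members.

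By their medians, the members were at low levels in the deletion strain and at high levels in the Ku70 strain. They ranged from 0 to 450 FPKM in the deletion strain and from 1.67 to 13162 FPKM in the Ku70 strain. Their median level was 7.11 FPKM in the deletion strain, against 142.8 FPKM in the Ku70 strain. The median of all 8807 IDs was 29.5 FPKM in the deletion strain, against 28.1 FPKM in the Ku70 strain. In the deletion strain 3 members averaged at least 100 FPKM, against 30 in the Ku70 strain. The ratio of the deletion mean to the Ku70 mean had a median of 0.0291 over the members, against 1.03 over all tested IDs. Much of this contrast follows from the limit of 0.5. The 643 qualifying genes outside the runs met the same limit and had a median ratio of 0.348. Their median level was 13.6 FPKM in the deletion strain, against 50.9 FPKM in the Ku70 strain. At least a 10-fold difference was seen for 33 members and at least a 50-fold difference for 18, leaving out POX01698, which was at 0 in the deletion strain. Among the tested IDs above 0 in the deletion strain, 28 showed a difference of at least 50-fold in this direction, and the runs held 64.3% of these. The runs held 7.35% of the genes that qualified by their ratio. In bulk mycelium a smaller share of expressing cells and less RNA per cell cannot be told apart.

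**Figure D1:**
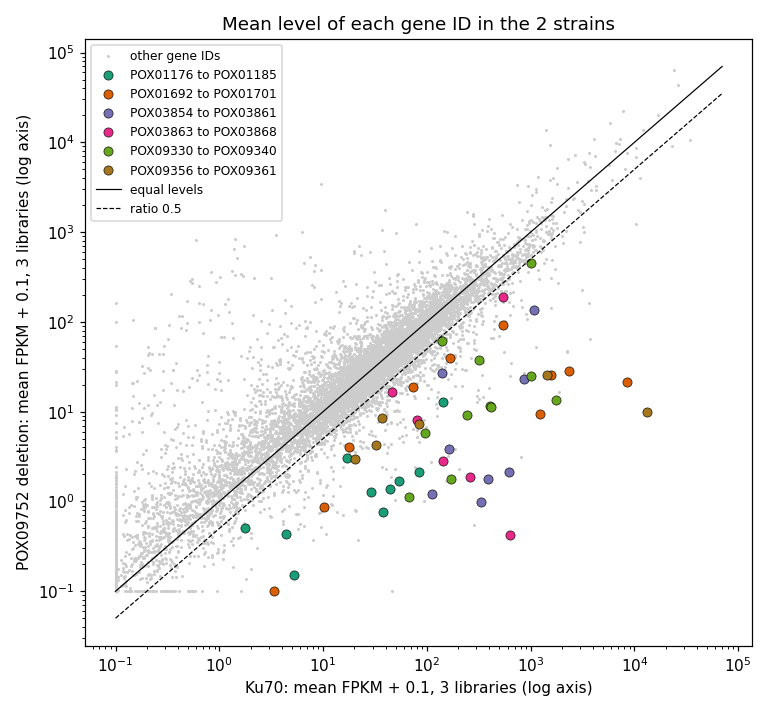
Mean level of each gene ID in the POX09752 deletion strain (y axis) and in the Ku70 strain (x axis), as FPKM + 0.1 on log axes, over 3 libraries each; members are coloured by run and all other IDs are grey. All 51 members lie below the dashed line at a ratio of 0.5 by the way they were chosen, and 34 lie at a ratio of 0.1 or less, POX01698 at a ratio of 0 among them.

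In 50 of the 51 members every deletion library was below every Ku70 library, a state that 32.2% of all tested genes share. The exception was POX01698. A fit of all 8807 genes (quasi-likelihood test of edgeR, adjusted p under 0.05) called the same 50 members lower, beside a background of 30.2%. Both counts rest on the contrast that chose the members and say nothing further about them.

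The run from POX01692 to POX01701, of 10 IDs, took the largest share of the Ku70 counts of all 6 runs. POX01695 had 24.98, 27.1 and 11.89 FPKM in the deletion libraries, against 8346, 8890 and 8042 FPKM in the Ku70 libraries. This was the 13th highest mean of all IDs in the Ku70 strain and the 5274th in the deletion strain, a 395-fold difference. The run begins at POX01692, which averaged 25.4 ± 6.29 FPKM in the deletion strain, against 1570 ± 12 FPKM in the Ku70 strain (SD, n = 3 each). POX01693 and POX01694, which follow, averaged 9.35 and 28.4 FPKM in the deletion strain, against 1229 and 2323 FPKM in the Ku70 strain.

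The run had a strong and a weak stretch. In its opening 4 IDs, POX01692 to POX01695, the deletion strain was 61.8-fold to 395-fold lower. In the following 6 the differences were smaller, from 3.91-fold for POX01699 to 13.3-fold for POX01701 where a fold could be given. POX01699 had 18.8 ± 3.03 FPKM in the deletion strain, against 73.5 ± 9.95 FPKM in the Ku70 strain (SD, n = 3 each). POX01701, the last member, had 1.38, 0.67 and 0.24 FPKM in the deletion libraries, against 11.29, 10.58 and 8.63 FPKM in the Ku70 libraries. POX01697 kept 91.6 ± 42.1 FPKM in the deletion strain, against 537 ± 43.4 FPKM in the Ku70 strain (SD, n = 3 each), and deletion replicate 3, with 140.1 FPKM, was the highest of the deletion libraries.

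POX01698 joins the weak stretch on very few counts. It had 0 counts in each deletion library, against 2, 3 and 0 counts in Ku70 replicates 1, 2 and 3, which gave 3.84, 6.03 and 0 FPKM. No fold is given for it, since the strains overlapped at 0. Without Ku70 replicate 2 its mean was under 1 FPKM, the run ended at POX01697, and POX01698, POX01699, POX01700 and POX01701 were no longer members.

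The run from POX09330 to POX09340 was the longest, with 11 IDs. Its strongest transcript in the Ku70 strain, POX09336, had 13.77, 12.83 and 13.66 FPKM in the deletion libraries, against 1683, 1778 and 1776 FPKM in the Ku70 libraries. At 130-fold this was also the largest difference in the run. The members from POX09332 to POX09340, 9 in all, were 8.44-fold to 130-fold lower in the deletion strain. POX09330 and POX09331, at the low end of the numbering, were only 2.27-fold and 2.25-fold lower.

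POX09331 was the member with the highest level in the deletion strain, at 450 ± 40.4 FPKM, against 1013 ± 46.9 FPKM in the Ku70 strain (SD, n = 3 each). Its ratio of 0.444 was the closest of all members to the limit of 0.5, followed by 0.441 for POX09330. With a limit of 0.4 these were the only members lost, and 49 remained. The last member, POX09340, had 1.24, 0.79 and 1.07 FPKM in the deletion libraries, against 59.11, 71.69 and 69 FPKM in the Ku70 libraries, a 64.5-fold difference. Levels within a strain were the most even of all runs: the median coefficient of variation over the members was 6.72% in the deletion strain and 3.27% in the Ku70 strain.

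**Figure D2:**
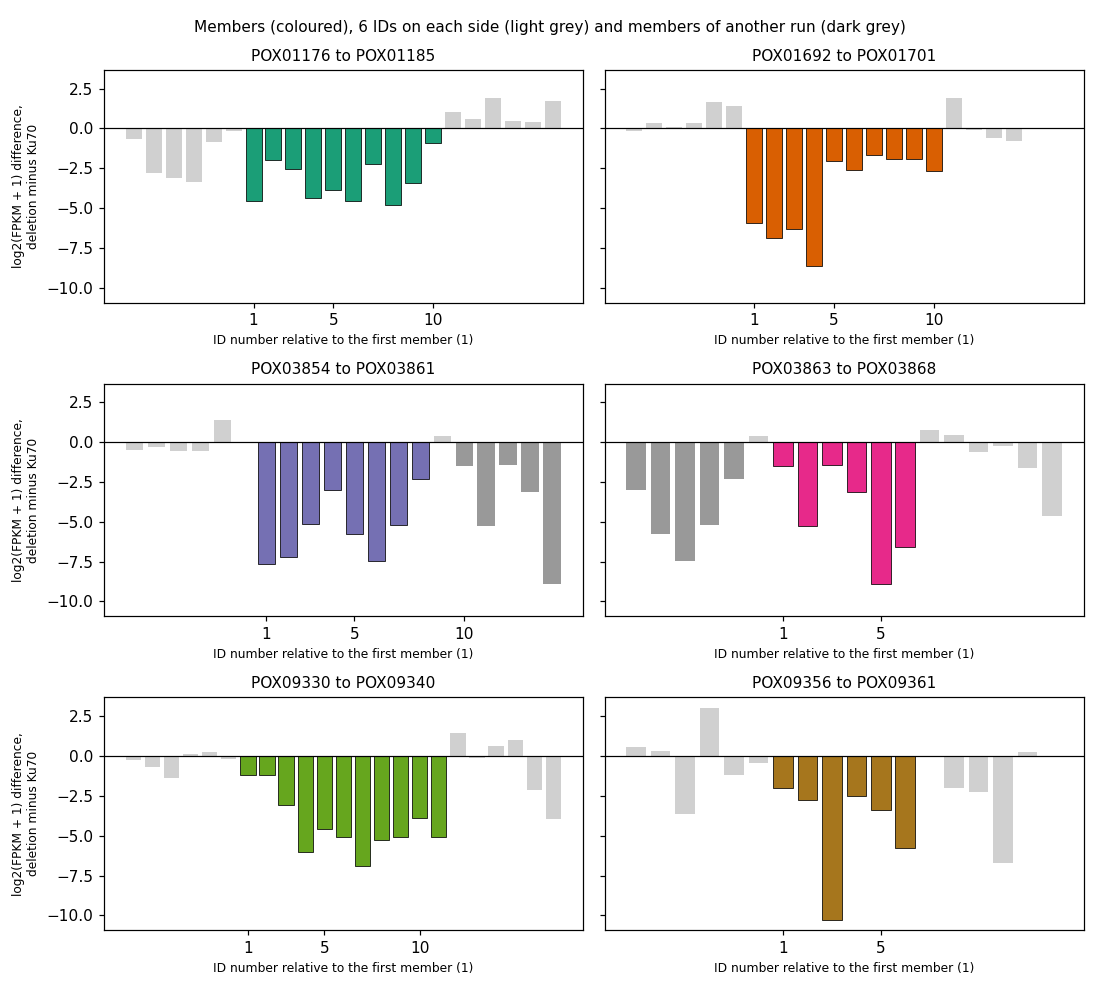
Difference of mean log2(FPKM + 1), deletion minus Ku70, for each member (coloured) and for the 6 IDs on each side of each run, against the ID number counted from the run's first member. The bars turn from negative to near or above 0 at the ends of the runs, and the POX03854 and POX03863 runs are separated by 1 ID, POX03862, with a positive bar.

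Between them, the runs from POX03854 to POX03861 (8 IDs) and from POX03863 to POX03868 (6 IDs) cover 14 of 15 consecutive numbers. The ID between them, POX03862, had 620, 657 and 560 FPKM in the deletion libraries, against 425, 496.5 and 452 FPKM in the Ku70 libraries. It was thus 1.34-fold higher in the deletion strain, with no overlap between the libraries of the strains.

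In the lower-numbered of these runs all 8 members averaged over 100 FPKM in the Ku70 strain. POX03854 had 1.93, 2.86 and 1.36 FPKM in the deletion libraries, against 479, 719.9 and 640 FPKM in the Ku70 libraries, a 299-fold difference. POX03859 was 380-fold lower, with 0.88 ± 0.19 FPKM in the deletion strain, against 335 ± 24.4 FPKM in the Ku70 strain (SD, n = 3 each). POX03857 was the most abundant in both strains, at 134 ± 13.5 FPKM in the deletion strain, against 1067 ± 193 FPKM in the Ku70 strain (SD, n = 3 each). POX03861, at the end of the run, showed the smallest difference, 5.20-fold, with 26.7 FPKM in the deletion strain, against 138.7 FPKM in the Ku70 strain.

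The POX03863 run combined small and very large differences. POX03867 was close to silent in the deletion strain, with 0.24, 0.39 and 0.33 FPKM, against 580, 658 and 639 FPKM in the Ku70 libraries. Its deletion level rests on 20 counts, so the count ratio after scaling to library totals, Ku70 over deletion, was 1931, with a 95% exact interval of 1250 to 3162 for counting error alone. POX03868, the next and last member, had 2, 2.1 and 1.22 FPKM in the deletion libraries, against 220.6, 294.8 and 261.7 FPKM in the Ku70 libraries, a 146-fold difference. POX03863 and POX03865 were only 2.86-fold and 2.80-fold lower. POX03863 remained at 188.7 ± 14.1 FPKM in the deletion strain, against 540 ± 44.3 FPKM in the Ku70 strain (SD, n = 3 each).

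The run from POX09356 to POX09361 (6 IDs) held the member with the highest level in the Ku70 strain. POX09358 had 9.76, 13 and 6.9 FPKM in the deletion libraries, against 13730, 13501 and 12254 FPKM in the Ku70 libraries. It was the 6th most abundant ID of the Ku70 strain and the 6912th of the deletion strain, a 1331-fold difference. POX09361, the last member, was 56.7-fold lower, at 25.2 ± 2.94 FPKM in the deletion strain, against 1430 ± 44 FPKM in the Ku70 strain (SD, n = 3 each). The remaining 4 members were far less abundant in the Ku70 strain, between 20.4 and 84.3 FPKM, and 4.35-fold to 11.8-fold lower in the deletion strain. POX09356, at the start of the run, had the smallest difference, with 8.4 FPKM in the deletion strain, against 36.6 FPKM in the Ku70 strain.

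The run from POX01176 to POX01185 (10 IDs) was the weakest in expression. Its median member had 1.23 FPKM in the deletion strain, against 33.4 FPKM in the Ku70 strain, and POX01184 was the only member over 100 FPKM, at 12.7 ± 3.75 FPKM in the deletion strain, against 142.8 ± 8.07 FPKM in the Ku70 strain (SD, n = 3 each). POX01176 had 0.44, 3.3 and 1.02 FPKM in the deletion libraries, against 57.55, 50.8 and 53.98 FPKM in the Ku70 libraries. POX01178 had 2 counts over the deletion libraries and 202 over the Ku70 libraries, so its scaled count ratio of 97.3 has a 95% exact interval from 26.6 to 809. The last member, POX01185, had 0.3, 0.53 and 0.37 FPKM in the deletion libraries, against 1.42, 1.71 and 1.87 FPKM in the Ku70 libraries, and its mean over all 6 libraries, 1.03 FPKM, was just inside the limit of 1.

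**Figure D3:**
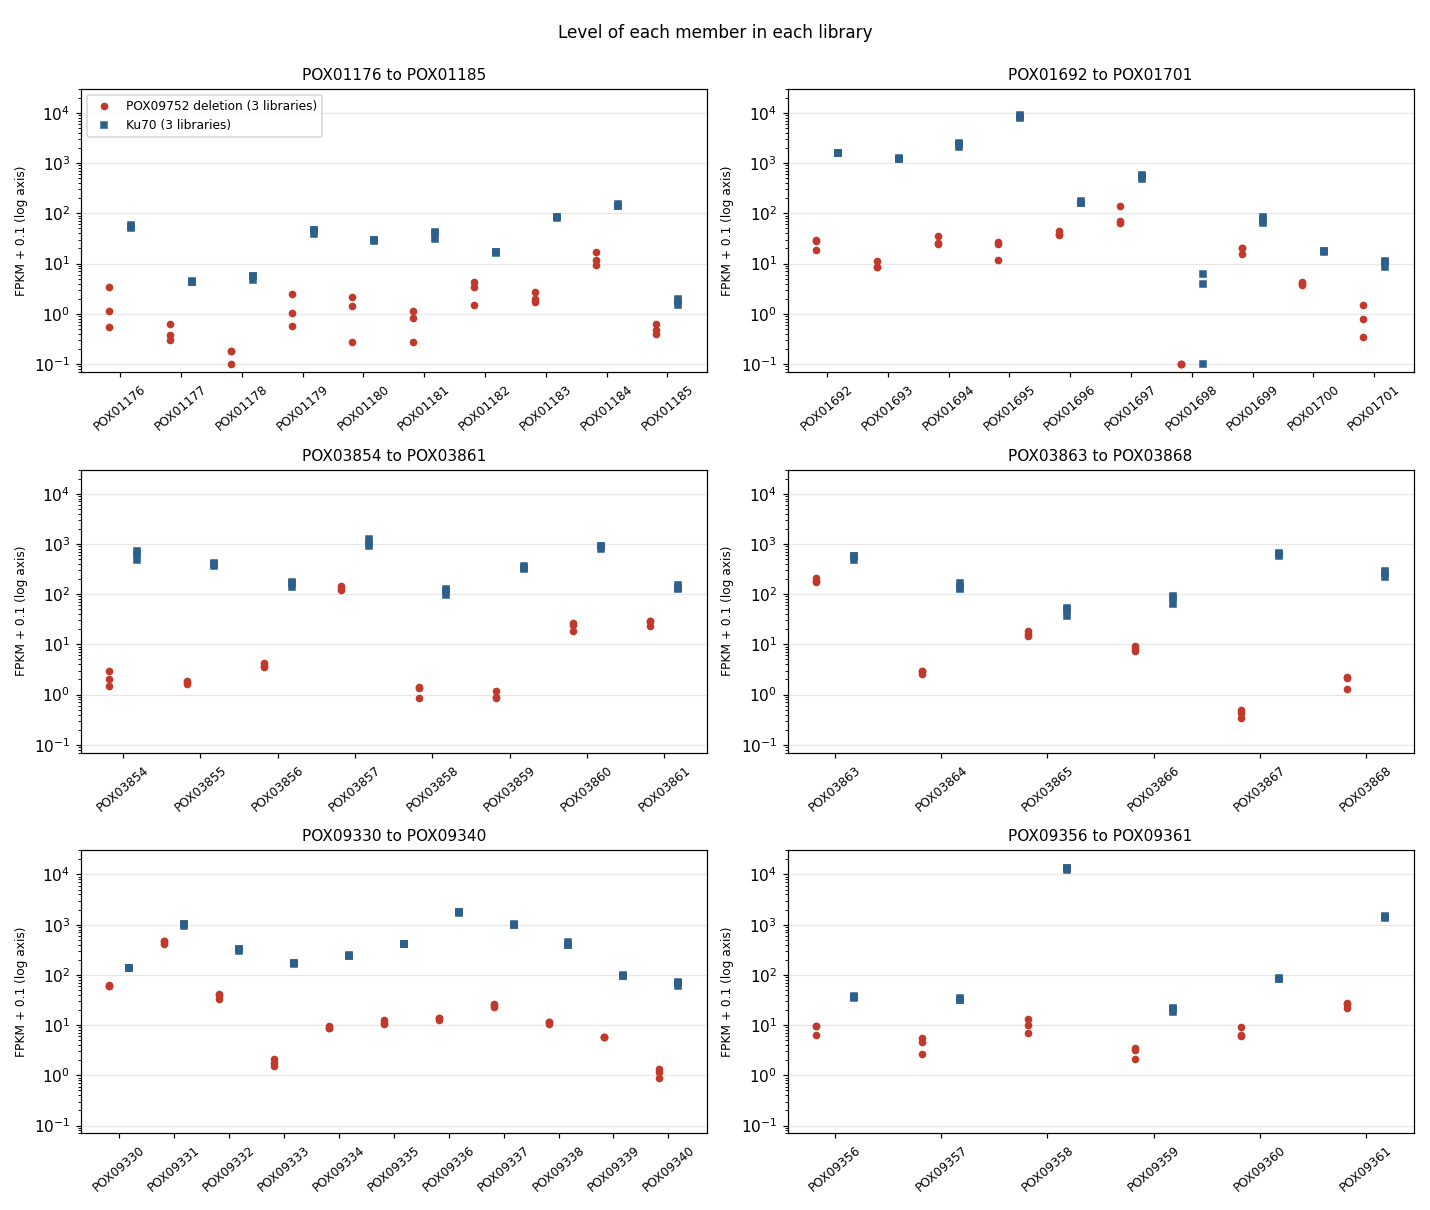
Level of each of the 51 members in each library, as FPKM + 0.1 on a log axis, with deletion libraries as red circles and Ku70 libraries as blue squares to their right. Except for POX01698, the circles of a member lie below all of its squares, with the widest gaps at POX03867 and POX09358.

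The members made up a visible share of the Ku70 transcriptome. Together they took 0.204%, 0.199% and 0.189% of the expected counts of the deletion libraries, against 4.63%, 4.98% and 4.69% of those of the Ku70 libraries. The largest part of the Ku70 share came from the POX01692 run, with 0.0333 ± 0.0047% in the deletion strain and 1.77 ± 0.076% in the Ku70 strain (SD, n = 3 each). The POX09330 run took 0.0961 ± 0.0069% and 1.23 ± 0.041%, and the POX09356 run 0.0065 ± 0.0011% and 1.02 ± 0.056%, in the deletion and the Ku70 strain (SD, n = 3 each). A few members held much of the Ku70 share. Over the 3 Ku70 libraries POX01695 had 425408 expected counts and POX09358 had 368124. The next highest member, POX01692, had 123475. The other members of the POX09356 run had 1432 to 44091. Of the 148 genes with at least 1000 FPKM in the Ku70 strain, 10 were members.

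**Figure D4:**
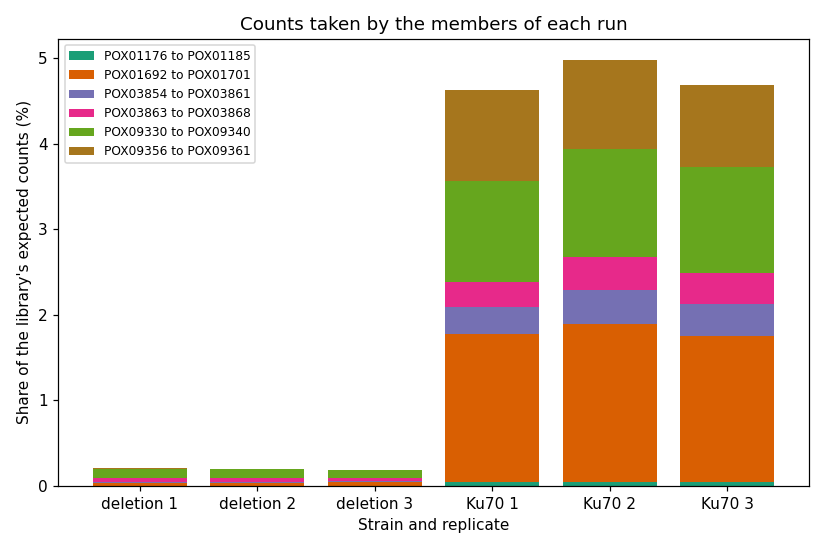
Share of each library's expected counts, in percent, taken by the members of each run, stacked by run, with the 3 deletion libraries left of the 3 Ku70 libraries. The stacks reach 0.189% to 0.204% in the deletion libraries and 4.63% to 4.98% in the Ku70 libraries.

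The numbers next to the runs did not continue them by the way runs end. Of the 11 IDs directly beyond an end, 9 were at 1 FPKM or more on average. These 9 had ratios from 0.756 for POX09355 to 4.02 for POX01702. For 4 of them (44.4%) the deletion level was 2-fold or more above the Ku70 level, beside a background of 13.7%. A ratio of at most 0.5 was not possible for these 9, since it would have continued the run. The difference from the background was not tested. POX01691 had 115 FPKM in the deletion strain, against 43.4 FPKM in the Ku70 strain, and POX01702 had 100.9 FPKM in the deletion strain, against 25.1 FPKM in the Ku70 strain, so a gene with a higher level in the deletion strain stood at each end of the POX01692 run. POX01186, POX03869 and POX09341 were likewise 2.22-fold, 1.96-fold and 2.82-fold higher in the deletion strain. POX01175 and POX09362 were nearly level, with ratios of 0.889 and 0.946. The remaining IDs, POX03853 and POX09329, averaged 0.05 and 0.403 FPKM over all libraries, below the level limit of 1 FPKM. POX09329 had 0, 0.85 and 0 FPKM in the deletion libraries, against 1.57, 0 and 0 FPKM in the Ku70 libraries. Its ratio of 0.541 thus rests on 1 library in each strain.

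Farther out, the numbers 2 to 6 beyond each end were set beside the table as a whole, leaving out those that were members. Left out were POX03863 to POX03867, beyond the POX03854 run, and POX03857 to POX03861, beyond the POX03863 run. The set is thus not free of the rule, since IDs that qualified in a run were removed from it. Of the 50 IDs kept, 42 were tested, and 20 (47.6%) were called lower in the deletion strain (edgeR, adjusted p under 0.05), beside a background of 30.2%. A further 11 (26.2%) were called higher, beside a background of 29.8%. Of the 42, 13 (31%) had a ratio of at most 0.5, against 7.88% of all tested genes. The runs were unlike in this. All 13 lay beside 4 of the runs, with 5 beside the POX09356 run, 3 each beside the POX09330 and POX01176 runs and 2 beside the POX03863 run. Beside the POX01692 run 1 of 9 tested IDs was called lower and 0 had a ratio of at most 0.5. Beside the POX03854 run only the low side was counted, where 3 of 5 were called lower, also with 0 at such a ratio. The members left out on its high side, POX03863 to POX03867, were all called lower, with ratios of at most 0.357. For the POX03863 run only the high side was counted. The members left out on its low side, POX03857 to POX03861, were all called lower, with ratios of at most 0.192. Neighbouring IDs are not independent, so these shares are a description and the difference from the background was not tested.

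Some of these outlying IDs matched the members in size. POX09365, the 4th number beyond the POX09356 run, had 15.79, 18.84 and 14.71 FPKM in the deletion libraries, against 1632, 1948 and 2019 FPKM in the Ku70 libraries (log2 fold change -6.86 ± 0.18, SE; edgeR, adjusted p = 7.84e-08). Along with POX09363 and POX09364 it was cut off from that run by POX09362 alone. POX01171, POX01172 and POX01173, on the low side of the POX01176 run, were at 0.337 to 1.04 FPKM in the deletion strain, against 10.5 to 15.5 FPKM in the Ku70 strain. POX03874, the 6th number beyond the POX03863 run, averaged 24.8 ± 3.73 FPKM in the deletion strain, against 626 ± 65.1 FPKM in the Ku70 strain (SD, n = 3 each). On the high side of the POX01176 run 4 of these IDs were called higher. POX01188, 1 of them, had 244.7 ± 53.7 FPKM in the deletion strain, against 64.2 ± 6.08 FPKM in the Ku70 strain (SD, n = 3 each; log2 fold change 1.90 ± 0.17, SE; edgeR, adjusted p = 3.91e-05). These IDs were picked for mention after their values were seen.

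The lengths of the members were not used by the rule. An effective length, the expected count divided by FPKM and library total, could be computed for 50 of the 51 members (POX01698 had too few counts). Its median was 1233 bases for the members and 1259 bases for the tested IDs that are no members. The upper end differed more: 7 of the 50 (14%) were longer than 4000 bases, against 316 of 8561 other IDs (3.69%), a difference that was not tested. POX09340 was the 2nd longest of 8611 IDs at 22656 bases, and POX03866 the 10th longest at 12713 bases.

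These 7 long members lay in 3 runs. The POX09330 run held POX09332 (6624 bases), POX09334 (4639 bases), POX09335 (5058 bases) and POX09340, the POX03863 run held POX03865 (7862 bases) and POX03866, and the POX01176 run held POX01177 (5583 bases). In fungi, multidomain enzymes such as polyketide and non-ribosomal peptide synthases are encoded by long genes. Length alone does not identify such genes, and 316 IDs that are no members were also longer than 4000 bases. The products of the 7 long members are not known here. Reads that fit several genes were divided between them for 7 members (13.7%), as seen from counts that were not whole, against 11.2% of all IDs. The largest differences, those of POX03867, POX09358 and POX01695, were of members with whole counts in all 6 libraries. Whether counting used strand is not stated, so overlap between neighbouring genes cannot be told apart from their own transcripts.

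The rule used strain means, so the order of the libraries within a strain was free to vary. In some runs most members shared an order, and in others they did not. In Ku70 replicate 1 all 8 members of the POX03854 run and all 6 of the POX03863 run had their lowest Ku70 level. Over all tested genes replicate 1 was the lowest Ku70 library in 40.3%. The median deviation from the strain's mean in that library was -0.15 and -0.19 on the log2(FPKM + 1) scale for these runs. In Ku70 replicate 2 they stood highest, for 6 of 8 and 6 of 6 members, against 44.4% of all genes. POX03862, between the runs, had its lowest and highest Ku70 levels in the same libraries. The POX01692 run was highest in Ku70 replicate 2 for 9 of 10 members. The POX01176 run had no common order in the Ku70 strain, with 2, 3 and 5 members lowest in replicates 1, 2 and 3, and neither had the POX09356 run, with 3, 1 and 2.

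In the deletion strain the runs differed in their order. The POX01176 run was lowest in deletion replicate 1 for 9 of 10 members, with a median deviation of -0.40, where 31.5% of all tested genes were lowest in that library. This order is limited by counting error: POX01176, POX01178, POX01179, POX01180, POX01181 and POX01185 had only 1 to 5 counts there. The run's median coefficient of variation in the deletion strain was 59.4%, against 6.72% to 25.4% in the other runs. The POX09356 run was lowest in deletion replicate 3 for 5 of 6 members, with a median deviation of -0.34, against 40.3% of all tested genes. The POX03863 run was lowest in the same library for 5 of 6 members and the POX03854 run for 6 of 8. The POX03854 run was also highest in deletion replicate 2 for 7 of 8 members, against 31.2% of all tested genes. The POX09330 run was highest in deletion replicate 1 for 7 of 11 members, against 27.6% of all tested genes. The POX01692 run had no common order, with 3, 1 and 5 members lowest in deletion replicates 1, 2 and 3. Members of a run share library and scaling, and with 3 libraries a strain these orders are a description.

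**Figure D5:**
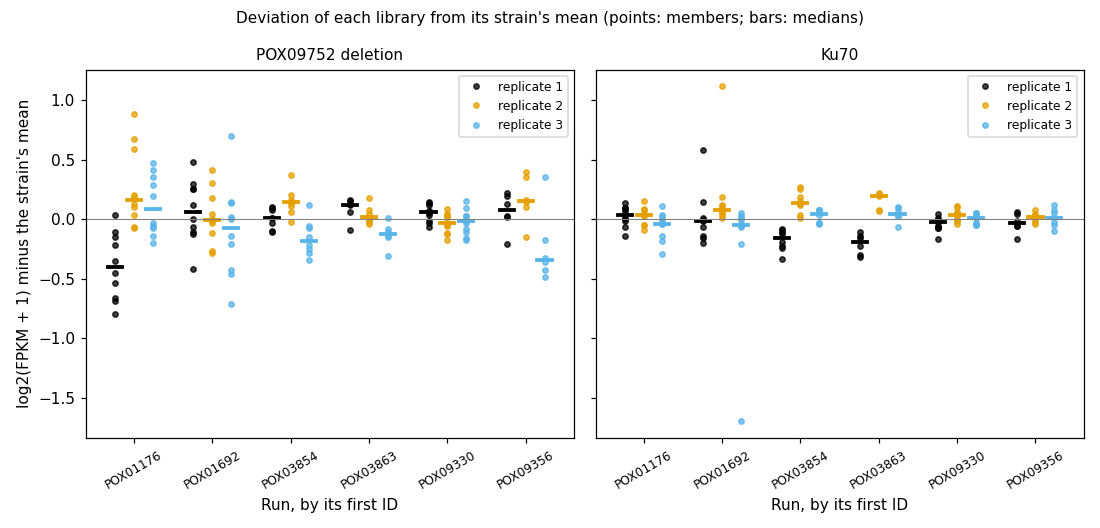
Deviation of each library from its strain's mean, on the log2(FPKM + 1) scale, for each member (points) with the median of each run (bars), for the deletion strain (left) and the Ku70 strain (right). Replicate 1 lies below 0 for the POX01176 run in the deletion strain and for the POX03854 and POX03863 runs in the Ku70 strain, and replicate 3 lies lowest for the POX09356 run in the deletion strain.

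With each deletion library left out in turn the rule found the same 51 members. With a Ku70 library left out it found 50, 46 and 50 members without replicates 1, 2 and 3, none of them new. The member lost in each case was POX01185, and without replicate 2 also the 4 IDs from POX01698 onward.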

How the data were processed

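The members and lists were chosen with earlier results of these data known. For each of 6 libraries the authors deposited 1 table of 9834 gene IDs with expected counts and FPKM values, per the file headers. Named in the submitters' processing notes, with no roles, are RSEM 1.2.12, Bowtie2 2.1.0, BWA 0.7.10-r789 and DESeq2. The sources used here do not give the build, annotation or strandedness. Counts as deposited by the authors carry no normalization, and the FPKM values were scaled by the authors to gene length and library total.

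Libraries were grouped by the strain in the labels. The rule was applied to the FPKM values as deposited. For the background and the flanking IDs, expected counts were rounded to whole numbers and the 8807 genes averaging 1 FPKM or more were fitted with edgeR's quasi-likelihood test and TMM scaling (factors 0.973 to 1.02), adjusted p by Benjamini-Hochberg. Standard errors are log2 fold changes over the root of F. Effective lengths use libraries with at least 20 counts. The fit and the run search were tested on simulated data. R 4.3.3, edgeR 4.0.16, limma 3.58.1, DESeq2 1.42.0 and Python 3.11.15 were used. Each run's IDs named in full were, by a set rule, the most abundant member, those with the lowest and highest ratio, the first and last, and the ID beyond each end. The values of POX01693, POX01694 and POX01697, outside that rule, were chosen after they were seen. No sequences are shown, since the reference table used holds none and matched 0 of the IDs. Alternatives were other limits of the rule, scalings, filters, tools and pseudocounts, the replicate block, and leaving out each library.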

Additional observations from a re-analysis of the deposited data

How the results depend on the processing

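The 51 members in 6 runs became 49 in 6 runs at a ratio of 0.4 and 43 in 6 runs at a mean of at least 5 FPKM. Runs of at least 4 IDs numbered 12 and held 75 genes, all 51 members among them. A ratio of 0.67 gave 103 genes in 16 runs, since a looser limit admits more genes. With 1 gap allowed there were 64 genes in 7 runs, and with no minimum level 56 genes in 7 runs. Medians and TMM-scaled counts gave the same 51 members. The median difference of the members, -4.38 on the log2(FPKM + 1) scale, was -5.15 with a pseudocount of 0.1 and -3.08 with 5, which follows from how a pseudocount weighs low levels. The fitted log2 fold changes had medians of -5.12 (edgeR) and -5.11 (DESeq2). Genes called lower numbered 2664 and 2243 to 2923 over the 13 alternatives. Of the members, 47 to 50 were called lower over the same alternatives, in which members under the filter were not tested. With the replicate block the counts were 2668 genes lower, 20 flanking IDs lower and 11 higher. The replicate letters of the titles were not shown to pair the samples: deviations of libraries with the same number correlated at -0.017, 0.156 and 0.075 across genes. Libraries with different numbers correlated at -0.129 to 0.063, so 0.156 and 0.075 lay above all of these. Whether the letters mark a pairing was not tested. Over the numbers 2 to 11 beyond each end, which are more IDs and again leave out members, 33 of 77 tested were called lower and 21 higher. Depth limits POX01698 (5 counts in the Ku70 libraries together) and POX01178 (2 counts in the deletion libraries together). Deletion counts were also low for POX01181 (11), POX01185 (16), POX03867 (20) and POX01180 (21).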

Other observations

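Some groups of neighbouring IDs with lower levels in the deletion strain fell just short of the limits. Of the 694 genes with a ratio of at most 0.5, 428 had no qualifying neighbour, 140 stood in pairs, 51 in runs of 3 and 24 in 6 runs of 4 IDs (POX00121, POX02068, POX04564, POX04866, POX04932 and POX08073 are the first of each). With 1 ID allowed inside that does not qualify, POX03854 to POX03868 formed 1 group of 14 qualifying IDs around POX03862, and POX09356 to POX09365 formed 1 group of 9 around POX09362. With no minimum level, POX08895 to POX08899 formed a further run of 5 IDs. These groups were looked at after the values were seen and were not tested.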
